A study of Mus musculus with 2 samples.

Results

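The genes examined here were the MHC class II genes and the factors that load them with peptide. They were 10 of the 32285 genes in the count matrices, taken by symbol: H2-Aa, H2-Ab1, H2-Eb1, Cd74, Ciita, H2-DMa, H2-DMb1, H2-DMb2, H2-Oa and H2-Ob. The question was where in the myeloid compartment of a tumor these genes were expressed, and how their levels differed after irradiation. MC38, a colon carcinoma line of the mouse, was grown as tumors in wild-type mice, and the CD45+ fraction was profiled by single-cell RNA sequencing. The Control library came from tumors that were not irradiated. The IR library came from tumors collected 4 days after 1 dose of 20 Gy. Each library pooled several tumors, so there was 1 library per group, no replicate check and no test. The sample records also name a narrower cell type, CD45+CD11b+Ly6Chi, whereas T cells, NK cells, B cells and dendritic cells (DCs) were all present in both libraries.

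MHC class II molecules present peptides from endocytosed proteins to CD4+ T cells. H2-Aa and H2-Ab1 encode the 2 chains of the H2-A molecule, and H2-Eb1 encodes the beta chain of H2-E. Cd74 encodes the invariant chain, which guides new class II molecules to the endosome and blocks their groove. H2-DM, encoded by H2-DMa with H2-DMb1 or H2-DMb2, exchanges the remnant of the invariant chain for peptide, and H2-DO, encoded by H2-Oa and H2-Ob, restrains H2-DM. Ciita encodes the transactivator that class II transcription requires. It is recruited by factors bound to the X and Y boxes of class II promoters, and B cells and DCs are known for high class II expression while monocytes and macrophages adjust it to their surroundings.

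Populations were set from marker genes that include none of the 10 genes. Each UMI, or unique molecular identifier, stands for a captured transcript, and barcodes with at least 1000 UMIs were used. After filters, 4389 Control and 3184 IR cells remained, with a median of 6991 and 7803 UMIs, and 6 cell barcodes occurred in both libraries. The DC, monocyte and macrophage gates together held 2480 Control and 1572 IR cells. They comprised 31 and 17 conventional type 1 DCs (cDC1), 87 and 122 type 2 DCs (cDC2), 112 and 133 mature DCs, 12 and 14 plasmacytoid DCs, 574 and 821 classical monocytes, 60 and 120 nonclassical monocytes, and 1604 and 345 macrophages. Markers outside the gates fitted the names of cDC1 and macrophages: Itgae was at 188 and 108 UMIs per 1000000 (CPM) in cDC1 and at most 12.2 in cDC2, and Ms4a7 was at 327 and 212 CPM in macrophages against 58.0 and 79.4 in classical monocytes. No such marker is given for the other populations. Here and below, paired values are Control, then IR. The cDC2 gate also held the monocyte gene Plac8 at 1225 and 1439 CPM, against 2366 and 3362 CPM in classical monocytes, and the part of monocytes in its values was not tested. A further 521 Control and 337 IR cells were set aside as mixed, and 532 and 291 met no gate. Mixed cells were T or NK cells with more than 1 C1q UMI, or cells not yet gated with at least 3 T and NK marker UMIs. The second rule asked for no myeloid marker and read all UMIs of a cell. Neither the mixed cells nor those without a gate entered a comparison.

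The 8 H2 genes lie together on chromosome 17 of GRCm38, from 34092340 to 34316674, a span of 224 kb (GENCODE vM21). Ciita lies on chromosome 16 from 10480059 to 10528418. RefSeq promoter windows of 300 bases, from 250 before to 50 after the start, were at hand for 7 of the 10 genes (GRCm38.p6). They are shown because class II genes are known for shared promoter boxes, so that the letters can be set beside levels that did not run together. The Y box core TGATTGG occurred in the windows of 6 genes, all on the strand of the gene, and in 7.82% of 32851 promoter windows on either strand. The X box core, which is AAC followed by any 2 bases and ATGATG, stood upstream of it in 4 genes, with 26 to 29 bases between the first letters of the 2 motifs. That core occurred in 0.137% of all windows, and both motifs together in 0.0274%. The motifs were chosen with the sequences in view, and a match is a description of letters only. In the following lines, written 5′ to 3′ on the strand of each gene, capitals mark these 2 motifs.
H2-Eb1, chr17:34305758-34305832, plus strand: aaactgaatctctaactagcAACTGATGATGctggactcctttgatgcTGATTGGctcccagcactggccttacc
H2-Ob, chr17:34238800-34238872, plus strand: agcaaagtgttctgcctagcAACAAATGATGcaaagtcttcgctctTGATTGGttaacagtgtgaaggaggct
H2-DMb1, chr17:34153079-34153154, plus strand: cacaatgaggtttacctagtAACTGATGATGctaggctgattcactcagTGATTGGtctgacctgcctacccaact
H2-DMb2, chr17:34145108-34145183, plus strand: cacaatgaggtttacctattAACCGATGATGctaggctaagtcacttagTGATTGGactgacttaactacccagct
H2-Aa, chr17:34287847-34287921, minus strand: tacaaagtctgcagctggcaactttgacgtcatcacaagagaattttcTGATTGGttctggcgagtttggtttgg
H2-Oa, chr17:34092286-34092360, plus strand: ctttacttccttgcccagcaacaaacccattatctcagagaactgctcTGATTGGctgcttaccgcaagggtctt

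The first letter of the Y box core lay 45 (H2-Oa) to 92 (H2-DMb2) bases before the start. The stretches shown for H2-DMb1 and H2-DMb2 were identical at 66 of 76 positions (86.8%). These 2 genes are close paralogs, and how reads that match both were counted is not given in the sources used here, so the split between them is uncertain. Neither of the 2 H2-DMa windows held either motif in these letters. These windows begin at 34122582 and 34125268, inside the GENCODE vM21 gene, which begins at 34119541 on the plus strand. The stretch before that annotated start was not searched.

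The 4 abundant genes, H2-Aa, H2-Ab1, H2-Eb1 and Cd74, were highest in cDC1 in both libraries, though the interval of H2-Eb1 in Control cDC1 (6792 to 7306) overlapped that of macrophages led by Dcstamp and Ccl17 (6728 to 7149). H2-Aa was at 9133 CPM in Control (exact Poisson 95% interval 8844 to 9429) and 8567 CPM in IR (8178 to 8970) in cDC1. In cDC2 it was at 7471 CPM (7276 to 7671) and 7231 CPM (7096 to 7369). The Dcstamp Ccl17 macrophages stood close to these, at 8162 and 6937 CPM, from 59 Control and 11 IR cells. Macrophages as a whole had 5100 and 3336 CPM, and classical monocytes had 2981 and 1850 CPM. These intervals, here and below, cover counting error only and neither animals nor libraries.

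Cd74, the invariant chain, was likewise highest in cDC1. It was at 24036 and 26148 CPM in cDC1, 20674 and 20524 CPM in cDC2, 9755 and 9248 CPM in mature DCs, 14160 and 9699 CPM in macrophages and 8799 and 6107 CPM in classical monocytes. T cells and NK cells, which in mice should lack class II, give the level that free RNA and attached cells bring. T cells had 2695 and 2300 CPM of Cd74 and NK cells 496 and 822 CPM. In empty droplets Cd74 was at 8978 CPM (Control) and 4625 CPM (IR), so the free RNA of the Control library was itself richer in class II.

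Ciita, the transactivator, was captured sparsely. In cDC2 it was at 130 CPM in Control (96 UMIs, 105 to 159) and 103 CPM in IR (154 UMIs, 87.4 to 121). In cDC1 it was at 89.4 CPM (62.9 to 123) and 160 CPM (111 to 224), from 37 and 34 UMIs. The cDC intervals overlapped in each library, and both lay above those of classical monocytes, at 42.1 CPM (35.5 to 49.5) and 20.3 CPM (17.0 to 24.1). Mature DCs had 25.6 and 13.6 CPM, a level with intervals that overlapped those of the monocytes.

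**Figure D1:**
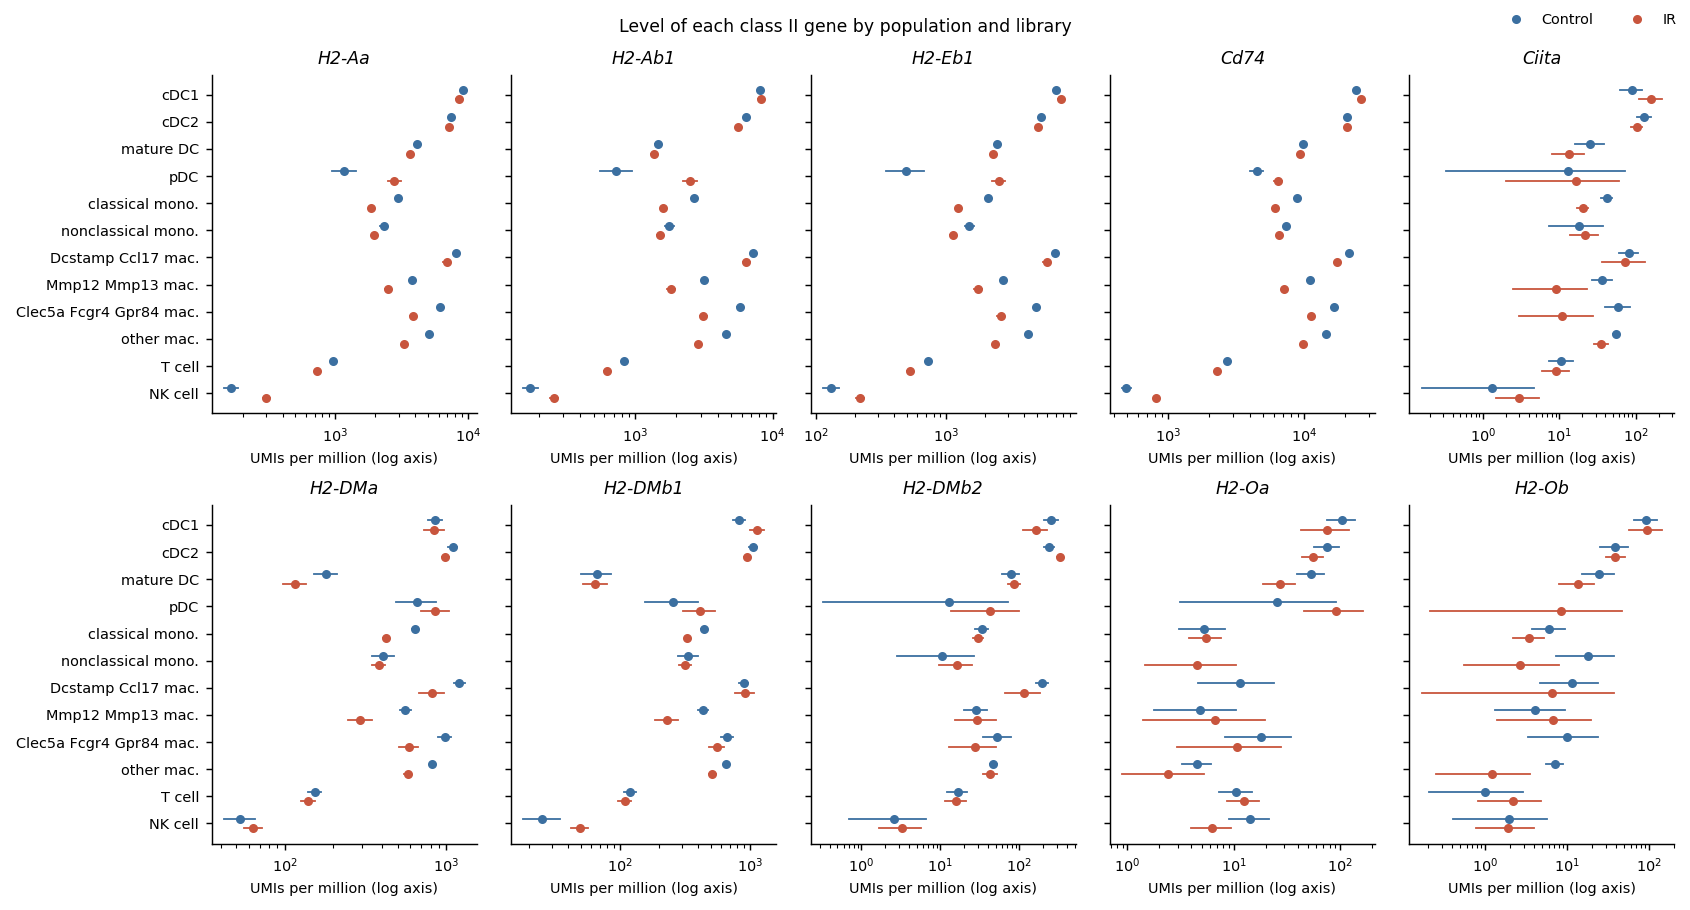
Level of each gene in CPM (log axes that differ between genes) in 12 populations, with 1 point per library (blue Control, red IR) and bars for the exact Poisson 95% interval. Populations without a UMI of a gene have no point. The 4 abundant genes stand highest in cDC1, cDC2 and Dcstamp Ccl17 macrophages, and H2-DMb2, H2-Oa and H2-Ob stand further above macrophages in cDC1 and cDC2 than H2-DMa does. In Control, the H2-DMb2 interval of Dcstamp Ccl17 macrophages overlaps that of cDC2.

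H2-DM and H2-DO, the exchange factor and its partner, were distributed differently from each other. H2-DMa had 1095 and 987 CPM in cDC2, 853 and 843 CPM in cDC1, 795 and 540 CPM in macrophages and 640 and 421 CPM in classical monocytes. H2-DMb1 was at 1056 and 952 CPM in cDC2, 829 and 1134 CPM in cDC1 and 445 and 329 CPM in classical monocytes. H2-DMb2 was at 254 and 160 CPM in cDC1 and at 235 and 331 CPM in cDC2, against 54.2 and 40.5 CPM in macrophages as a whole and 33.7 and 30.2 CPM in classical monocytes. In the Dcstamp Ccl17 macrophages H2-DMb2 was at 195 and 113 CPM, and its Control interval overlapped that of cDC2. Their H2-DMa, at 1208 and 816 CPM, was the highest of the DC, monocyte and macrophage populations in Control.

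H2-Oa was at 104 and 75.3 CPM in cDC1, 75.7 and 55.6 CPM in cDC2, and 5.67 and 3.56 CPM in macrophages. The macrophage values, from 81 and 13 UMIs, lay below the 10.6 and 12.5 CPM of T cells, and free RNA came to 2.47% and 2.86% of them. H2-Ob was at 91.8 and 94.1 CPM in cDC1 and 37.9 and 38.8 CPM in cDC2. Its macrophage values, 7.78 and 2.19 CPM from 111 and 8 UMIs, stood against 0.997 and 2.21 CPM in T cells, from 3 and 6 UMIs. The few B cells, 14 and 8, had the highest H2-Ob, at 289 CPM (181 to 438) and 863 CPM (564 to 1265), and the highest H2-DMb2, at 473 and 897 CPM.

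Ratios between 2 genes in the same population are free of the cell total. Per 100 H2-DM UMIs, cDC1 had 10.1 H2-DO UMIs in Control (7.94 to 12.7) and 7.93 in IR (5.48 to 11.1), and cDC2 had 4.76 and 4.16. Mature DCs had 24.1 (18.2 to 31.6) and 15.3 (11.3 to 20.4). Classical monocytes had 1.01 and 1.15, and macrophages had 0.911 and 0.536. B cells, with 29 and 37 H2-DO UMIs, had 32.6 and 88.1.

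Mature DCs, the cells that carry Ccr7, Fscn1 and Ccl22 and are known to move to lymph nodes, stood apart within the DCs. They held 281 H2-Aa UMIs per 100 H2-Ab1 UMIs in Control (263 to 299) and 268 in IR (254 to 283), against 117 and 129 in cDC2 and 112 and 116 in classical monocytes. H2-Eb1 behaved like H2-Aa, at 168 and 166 per 100 H2-Ab1 in mature DCs and 84.8 and 92.0 in cDC2. H2-DM was scarce relative to class II, with 4.01 (3.54 to 4.52) and 3.64 (3.26 to 4.04) H2-DM UMIs per 100 UMIs of the 3 H2-A and H2-E genes. In cDC2 there were 12.4 and 12.6, and cDC1 lay between, at 7.96 and 8.73. H2-DMb1 was at 66.4 and 64.8 CPM, of which free RNA came to 8.43% and 2.86%, and stood below the 120 and 109 CPM of T cells. H2-DMb2 was at 78.0 and 85.9 CPM, so that mature DCs held 118 (81.3 to 170) and 133 (99.3 to 177) H2-DMb2 UMIs per 100 of H2-DMb1, where cDC2 held 22.3 and 34.7 and macrophages 8.64 and 8.23. Mature DCs and cDC2 had intervals that did not overlap for these ratios in both libraries. The ratios of mature DCs moved beyond their counting intervals with the filters and gates, an alternative added after the data were seen. H2-Aa per 100 H2-Ab1 ranged from 159 to 351 in Control and 191 to 311 in IR over 6 other settings, the low ends when the gates used all UMIs of a cell. H2-DM per 100 class II UMIs ranged from 3.56 to 6.12 and 3.64 to 5.06, and H2-DMb2 per 100 H2-DMb1 from 56.5 to 232 and 71.4 to 183. H2-DO per 100 H2-DM ranged from 10.8 to 26.9 and 8.82 to 16.7. In each of these settings the value lay on the same side of cDC2, where the 4 ratios reached at most 129, at least 12.2, at most 36.1 and at most 5.49. The cDC1 were not followed over these settings. For H2-DO per 100 H2-DM, the low ends of mature DCs, 10.8 and 8.82, lay within the main cDC1 intervals (7.94 to 12.7 and 5.48 to 11.1).

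**Figure D2:**
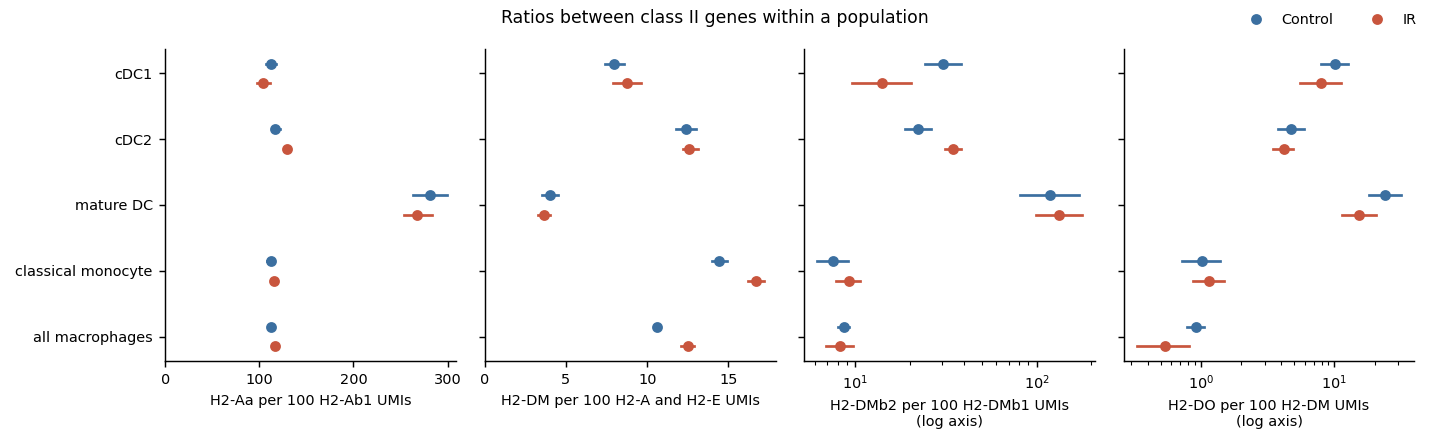
UMIs of a gene or gene group per 100 UMIs of another in 5 populations, Control in blue and IR in red, with exact 95% intervals for counting error (linear axes in the first 2 panels, log axes in the last 2). Mature DCs have the highest H2-Aa to H2-Ab1 ratio, at 281 and 268, the lowest H2-DM ratio, at 4.01 and 3.64, and the highest H2-DMb2 and H2-DO ratios.

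The second comparison asked whether the class II level differed after irradiation, and in which cells. A gene was called lower or higher when the libraries differed by at least 1.5-fold and the exact counting interval of the ratio left out no change, among genes with at least 20 UMIs. In classical monocytes, 5 of the 10 genes were lower in IR and none was higher, where 7.81% of 9892 genes were lower and 6.05% higher. The median log2 ratio of IR over Control was -0.65 for the class II genes and -0.07 for all genes. Among genes with at least 1000 UMIs the rule called 2.35% lower, and 4 of the 6 class II genes at that depth were among them. H2-Ab1 went from 2673 to 1592 CPM, a log2 ratio of -0.75 (-0.79 to -0.71), and H2-Eb1 from 2091 to 1234 CPM (-0.76, -0.81 to -0.71). Ciita had the largest ratio of the 5, at -1.05 (-1.40 to -0.70), from 145 and 129 UMIs. H2-DMa was lower at -0.60, while H2-DMb1, at -0.44, and Cd74, at -0.53, were 1.35-fold and 1.44-fold higher in Control and did not reach the rule. H2-DMb2 (-0.15), H2-Oa (0.08) and H2-Ob (-0.81) had intervals that included no change.

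The size of these differences moved with the definition of the gate. The median was -0.50 with another random thinning of the cells, -0.46 without removal of doublets and -0.47 with at least 2000 UMIs per barcode. It was -1.58, over 8 genes, when the gate left out the interferon-induced genes. The direction was the same in each, and from 2 to 8 class II genes were called lower. The share over all genes was not taken at these settings, so these counts have no background beside them. Free RNA, gauged from 10 genes of T and NK cells, came to 7.52% of the UMIs of Control monocytes and 1.43% of IR monocytes. At that share it supplied 7.67% and 1.08% of their Cd74, and the part of attached lymphocytes in these values was not tested. In T cells the log2 ratios of H2-Aa, H2-Ab1 and H2-Eb1 were -0.39, -0.41 and -0.48, with intervals below 0. In NK cells they were 0.89, 0.57 and 0.75, with intervals above 0. The part of this background in the monocyte ratios was not tested.

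Macrophages showed differences of like size. In all macrophages, 5 of 10 genes were lower in IR and none was higher, where 9.21% of 11067 genes were lower and 5.60% higher. The median was -0.64 for the class II genes and -0.09 for all genes. Of genes with at least 1000 UMIs, 4.48% were lower, and 3 of the 6 class II genes at that depth were. H2-Eb1 went from 4226 to 2417 CPM (-0.81, -0.84 to -0.77), H2-Ab1 from 4553 to 2849 CPM (-0.68) and H2-Aa from 5100 to 3336 CPM (-0.61). Ciita went from 55.8 to 30.7 CPM (-0.86, -1.16 to -0.58). H2-Ob, the fifth, had a ratio of -1.83 (-3.07 to -0.80) that rests on the 8 UMIs in IR. Cd74 was at -0.55, H2-DMa at -0.56 and H2-DMb1 at -0.35, each with an interval below 0 but under 1.5-fold.

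The macrophage subsets were of unequal size, and only cells outside the 5 marked subsets, 1079 in Control and 238 in IR, exceeded 50 in both libraries. There H2-Eb1 was at 4304 and 2376 CPM (-0.86), H2-Aa at -0.62 and Ciita at -0.65. Values of the smaller subsets are given side by side. In cycling macrophages (168 and 9 cells), H2-Ab1 was at 4256 and 1948 CPM and H2-Eb1 at 3962 and 1450 CPM. In Lyve1 Folr2 macrophages (96 and 9 cells), H2-Ab1 was at 3804 and 1328 CPM and H2-Eb1 at 3523 and 1121 CPM. Their IR values rest on 9 cells each. In macrophages led by Mmp12 and Mmp13 (144 and 42 cells), H2-Ab1 was at 3156 and 1835 CPM. Their Ciita was at 36.5 and 8.98 CPM, from 45 and 4 UMIs (-2.02, -3.96 to -0.57). In those with Clec5a, Fcgr4 and Gpr84 (58 and 36 cells), H2-Ab1 was at 5759 and 3134 CPM. Their Ciita was at 58.8 and 10.8 CPM, from 29 and 4 UMIs (-2.44, -4.41 to -0.93). In the Dcstamp Ccl17 macrophages (59 and 11 cells), H2-Ab1 lay closer between libraries, at 7243 and 6466 CPM (-0.16). H2-Aa, H2-Eb1 and Cd74 were at -0.23, -0.22 and -0.29. H2-DMa was at 1208 and 816 CPM (-0.57, -0.85 to -0.29) and H2-DMb2 at 195 and 113 CPM (-0.79, -1.62 to -0.05). Ciita, at 80.9 and 72.9 CPM, rested on 49 and 11 UMIs, and its interval (-1.24 to 0.81) was too wide to place it. Cycling cells were 10.5% of Control and 2.61% of IR macrophages, and the median mitochondrial share was 5.86% and 3.6%. With subsets weighted by their Control cell numbers the median of the 10 genes was -0.71, and the part of mitochondrial content in the result was not tested.

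**Figure D3:**
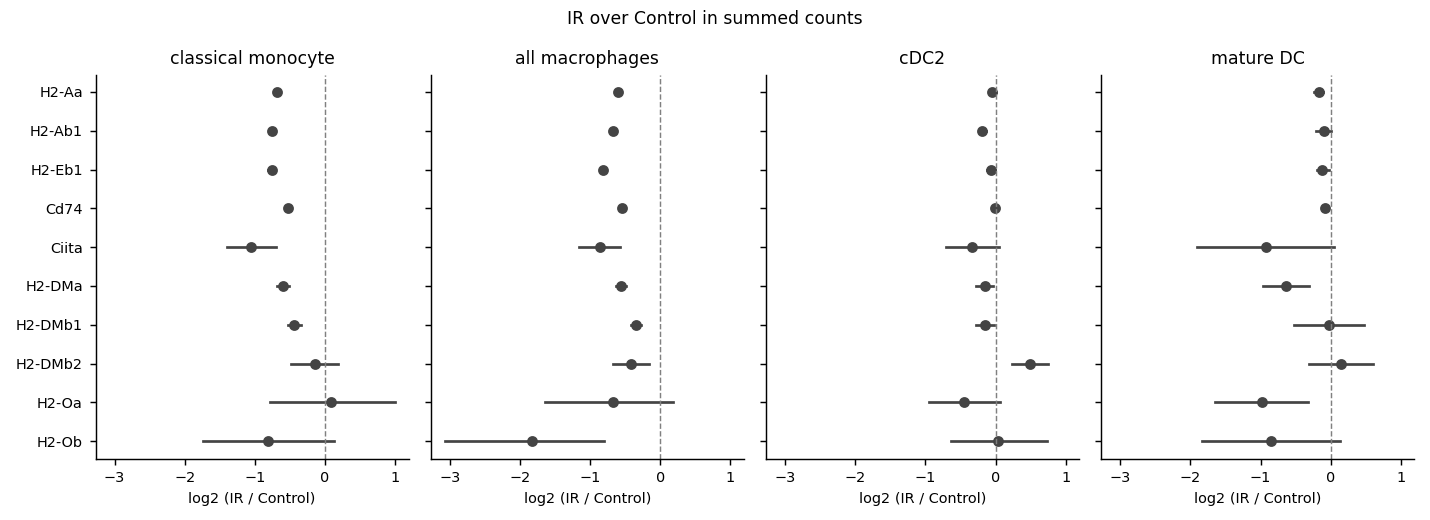
Log2 ratio of IR over Control in summed counts for each gene (rows) in classical monocytes, all macrophages, cDC2 and mature DCs (panels), with the exact conditional 95% interval for counting error. The 4 abundant genes lie between -0.53 and -0.81 in the 2 left panels and between -0.19 and -0.01 in the 2 right ones.

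In conventional DCs the abundant genes differed little between libraries. In cDC2, none of 10 genes was lower by the rule, and none was higher. Of all 7268 genes, 3.94% were lower and 326 genes were higher, so both counts were near the share over all genes. H2-Aa had a log2 ratio of -0.05 (-0.09 to -0.00), Cd74 of -0.01 (-0.04 to 0.02), H2-Eb1 of -0.07 and H2-Ab1 of -0.19 (-0.24 to -0.13). H2-DMb2 was at 0.49 (0.24 to 0.75), just under 1.5-fold. Ciita was at -0.33 (-0.71 to 0.05), an interval that includes the -0.65 of macrophages outside the marked subsets. When the gates used all UMIs of a cell, the ratios of H2-Aa, H2-Ab1 and H2-Eb1 in cDC2 were 0.09, 0.06 and 0.12 and that of Cd74 was 0.22.

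The cDC1, with 31 and 17 cells, were set aside from the calls, and their values are given side by side. H2-Ab1 was at 8138 CPM (7865 to 8417) and 8275 CPM (7893 to 8671), and the intervals overlapped. Ciita was at 89.4 and 160 CPM (0.84, 0.12 to 1.55), from 37 and 34 UMIs. H2-DMb2 was at 254 and 160 CPM (-0.66, -1.27 to -0.09) and H2-DMb1 at 829 and 1134 CPM (0.45, 0.21 to 0.70). Cd74 and H2-Eb1 had ratios of 0.12 each, and these turned to -0.01 and -0.05 without removal of doublets.

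In mature DCs, 2 of 10 genes were lower by the rule, where 4.36% of 6656 genes were. H2-DMa was at 179 and 115 CPM (-0.64, -0.97 to -0.31) and H2-Oa at 53.5 and 27.1 CPM (-0.98, -1.65 to -0.32). The H2-DMa ratio was -0.20 with another thinning seed, under 1.5-fold. H2-Aa (-0.17), H2-Ab1 (-0.10), H2-Eb1 (-0.12) and Cd74 (-0.08) stood within 1.13-fold of Control, and these 4 ratios were above 0 with another thinning seed. Nonclassical monocytes had 0 of 8 genes lower, where 4.54% of 6080 genes were, a count near that share. Their H2-Eb1 was at 1514 and 1129 CPM (-0.42) and Cd74 at 7346 and 6564 CPM (-0.16).

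The difference between populations was then taken for each gene directly. The log2 ratio of H2-Aa was lower by 0.64 in classical monocytes than in cDC2, a difference of -0.64 (-0.70 to -0.58). That of H2-Eb1 differed by -0.69 (-0.76 to -0.62), Cd74 by -0.52 (-0.55 to -0.48) and Ciita by -0.72 (-1.22 to -0.21). In macrophages against cDC2 the differences were -0.57, -0.74, -0.54 and -0.53 for the same genes, and the intervals of these genes lay below 0. H2-DMb1 differed less from cDC2, by -0.29 (-0.44 to -0.13) in classical monocytes and -0.20 (-0.34 to -0.05) in macrophages. The interval of H2-Oa included 0 in both, and that of H2-Ob did in classical monocytes. Against mature DCs, H2-Ab1 in classical monocytes differed by -0.64 (-0.75 to -0.53) and H2-DMa by 0.03 (-0.30 to 0.37). Ciita, itself at -0.92 (-1.90 to 0.05) in mature DCs, differed from them by -0.13 (-1.09 to 0.83) in classical monocytes and by 0.05 (-0.89 to 1.0) in macrophages, intervals too wide to place it. H2-Oa differed by 1.06 (0.03 to 2.09) in classical monocytes.

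The spread over cells was read after thinning each cell to 1000 UMIs and adding H2-Aa, H2-Ab1, H2-Eb1 and Cd74. In classical monocytes, at least 10 class II UMIs were held by 49.0% of cells in Control (Clopper-Pearson 95% interval 44.8% to 53.1%) and by 30.5% in IR (27.3% to 33.7%). The median cell held 8.0 and 2.0, and 19.2% and 30.1% of cells held none. The 90th percentile stood at 43.0 UMIs in Control and 31.0 in IR, beside cDC2 medians of 40.0 and 37.5. Close to the threshold, from 8 to 11 UMIs, lay 44 Control and 59 IR monocytes.

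Among macrophages, 10 UMIs were reached by 74.4% (72.2% to 76.6%) in Control and by 50.7% (45.3% to 56.1%) in IR, with medians of 23.0 and 10.0. Among cells that reached 10 UMIs the median was 31.5 in Control and 25 in IR. In cDC2, 83.9% (74.5% to 90.9%) and 77.0% (68.6% to 84.2%) reached it, and the intervals overlapped. Mature DCs had 43.8% and 42.9%. As background, 9.25% and 7.53% of T cells and 1.65% and 2.12% of NK cells reached 10 UMIs, at median depths of 4862 and 6405 UMIs for T cells and 4542 and 6159 for NK cells.

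**Figure D4:**
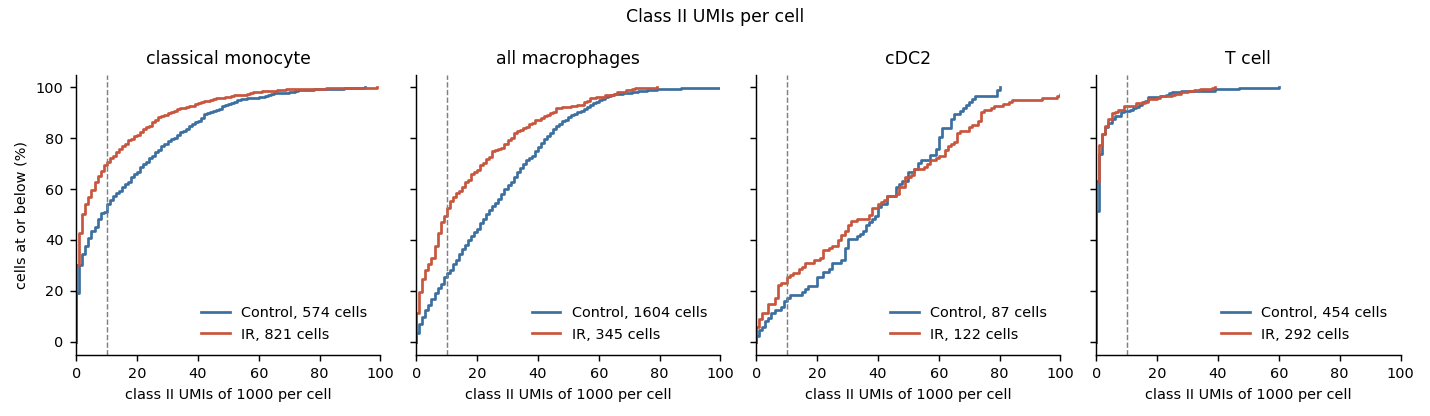
Cumulative share of cells (y axis, %) at or below a given number of class II UMIs (H2-Aa, H2-Ab1, H2-Eb1 and Cd74 of 1000 UMIs per cell, x axis) in 4 populations, Control in blue and IR in red. The dashed line marks 10 UMIs. The IR curve lies above the Control curve over most of the axis in monocytes and macrophages, where 49.0% and 74.4% of Control cells reached 10 UMIs against 30.5% and 50.7% of IR cells.

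Classical monocytes were 13.1% and 25.8% of the cells kept and macrophages 36.5% and 10.8%, so monocytes and macrophages were also ordered by the share of C1q among their gate UMIs. Cells without C1q reached 10 class II UMIs in 42.6% (37.7% to 47.5%) of the Control and 28.7% (25.3% to 32.4%) of the IR library. With a share between 50 and 75% the values were 82.2% (76.9% to 86.7%) and 48.0% (39.0% to 57.1%). Above 75% they were 73.0% (70.5% to 75.3%) and 52.3% (45.5% to 59.0%). Control was higher in each of the 5 bins, and the intervals did not overlap in 4 of them. The exception was the bin above 0 to 25%, at 52.8% (41.9% to 63.5%) and 39.6% (30.0% to 49.8%). Over both gates, 67.7% of Control and 36.4% of IR cells reached 10 UMIs, a ratio of 0.54, and with the bins weighted by Control cell numbers the ratio was 0.68.

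**Figure D5:**
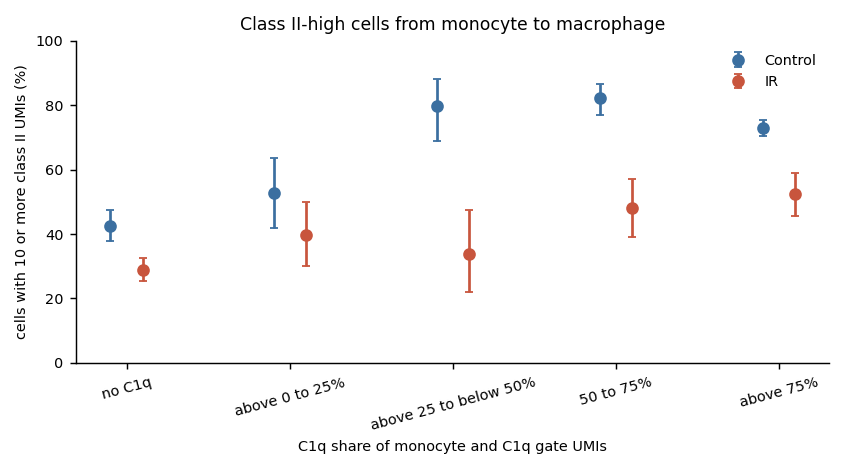
Percent of cells with at least 10 class II UMIs of 1000 (y axis) in 5 bins of the C1q share of gate UMIs, from monocyte (left) to macrophage (right), with exact binomial 95% intervals, Control in blue and IR in red. Control lies above IR in every bin, from 42.6% against 28.7% on the left to 73.0% against 52.3% on the right.

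Cxcl9, a chemokine induced by interferon gamma, moved with class II between and within libraries. This split was chosen after the data were seen. At least 2 Cxcl9 UMIs of 1000 were found in 302 of 1604 Control and 29 of 345 IR macrophages, and in 84 of 574 and 42 of 821 classical monocytes. Monocytes with that many reached 10 class II UMIs in 65.5% (Control, 54.3% to 75.5%) and 57.1% (IR, 41.0% to 72.3%). Monocytes without Cxcl9 did so in 45.5% (40.9% to 50.3%) and 28.4% (25.1% to 31.8%). In macrophages without Cxcl9 the shares were 69.6% (66.8% to 72.3%) and 46.6% (40.7% to 52.5%). With 1 Cxcl9 UMI they were 82.6% (76.0% to 88.1%) and 76.9% (56.4% to 91.0%), and with at least 2 they were 88.1% (83.9% to 91.5%) and 69.0% (49.2% to 84.7%). In monocytes with 1 Cxcl9 UMI, 42 Control and 46 IR cells, they were 52.4% (36.4% to 68.0%) and 39.1% (25.1% to 54.6%). The intervals of these shares overlapped between libraries in cells with a Cxcl9 UMI, where the IR library held 26 and 29 macrophages. They did not overlap in cells without, where it held 290 macrophages. The overlap went with smaller groups and does not show that the libraries differed less in cells with Cxcl9. With at least 2 Cxcl9 UMIs, H2-Ab1 in macrophages was at 5718 CPM (5633 to 5803) and 4527 CPM (4302 to 4760). In monocytes with that many it was at 4134 CPM (3946 to 4329) and 3434 CPM (3221 to 3658). The H2-Ab1 intervals did not overlap in either population. Those of Ciita overlapped in both, and those of Cd74 in monocytes only. The part of Cxcl9 in the result was not tested.

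The wider pathway was a list of 24 genes for transcription, peptide processing, turnover and costimulation. By the same rule, 2 of 23 measured genes were lower and 3 higher in classical monocytes, and 2 of 24 were lower and 3 higher in macrophages. The shares over all genes were 7.81% lower and 6.05% higher in classical monocytes and 9.21% and 5.60% in macrophages, so the lower counts were near that share. Of the costimulatory genes, Cd80 and Cd86 were higher in IR in both populations. Cd80 was at 36.8 and 67.9 CPM in classical monocytes (0.88, 0.59 to 1.18) and 17.7 and 46.3 CPM in macrophages (1.39, 1.10 to 1.68). Cd86 was at 123 and 191 CPM (0.64) and at 80.6 and 152 CPM (0.91). Cd40 did not reach the rule in either.

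Among the proteases that degrade the invariant chain and antigens, Ctsl was higher in both, at 337 and 534 CPM in monocytes (0.67) and 639 and 1243 CPM in macrophages (0.96). Ctss was at 2562 and 3116 CPM and at 3165 and 3992 CPM, under 1.5-fold. Of 12 transcription factors, Irf4 was lower in monocytes at -1.59 (-2.17 to -1.03), in macrophages at -1.13 and in cDC2 at -1.10. The subunits of the X and Y box complexes did not share one direction. Rfx5 was lower in macrophages at -0.97 (-2.02 to -0.05) from 84 and 11 UMIs, while Nfya, Nfyb and Nfyc were at 0.02, 0.13 and -0.06. Irf1, an interferon-induced activator of Ciita, was at 0.40 in monocytes and at 0.35 in macrophages, under 1.5-fold. Of the E3 ligases that remove class II from the surface, March8 was lower in monocytes at -0.59 (-1.13 to -0.04), at the edge of the rule, and March1 was at 0.58 in both monocytes and macrophages, under 1.5-fold.

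Across 36 points, 18 populations in 2 libraries, the genes most like the mean of the 4 abundant genes in log2(CPM + 10) were Ifi30 (Pearson r 0.91), which encodes a lysosomal thiol reductase, Erp29 (0.90), Gdi2 (0.85), Ly86 (0.83) and Plbd1 (0.83), of 7188 genes. Points of a library share its depth and free RNA, so these are descriptions. Within the class II genes, r with that mean was 0.90 for H2-DMa, 0.84 for H2-DMb1, 0.83 for Ciita, 0.76 for H2-DMb2, 0.37 for H2-Ob and 0.23 for H2-Oa. Ifi30 was not called between libraries, with 1126 and 1233 CPM in classical monocytes and 1339 and 1321 CPM in macrophages. The genes most like Ciita were Fgd2 and Wdfy4 (0.79 each), Erp29 and Gdi2 (0.75 each) and Hepacam2 (0.73), of which Wdfy4 is a marker of the cDC1 gate.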

How the data were processed

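The authors deposited unfiltered raw UMI counts per gene and barcode from 10x Chromium 3′ libraries, 1 matrix per library, with 48593879 Control and 42406461 IR UMIs. The submitters' processing notes name Cell Ranger 6.0.1 and mm10, and the matrix headers name version 4. Barcodes with at least 1000 UMIs, 200 genes and at most 25% mitochondrial UMIs were kept (4679 and 3410). As doublets, 290 and 226 barcodes were removed, the top 6% by Scrublet score in scanpy 1.11.5, in place of the DoubletFinder step of the study. Cells were gated on marker UMIs after thinning to 1000 UMIs, with floors set with the cells in view. Scarce markers of cDC1, cDC2, plasmacytoid DCs and nonclassical monocytes were read from all UMIs. Counts were summed per library and population and scaled to CPM. Intervals at the 95% level are exact Poisson, exact conditional (ratios) or Clopper-Pearson (shares), and a normal approximation for differences of log2 ratios. They cover counting error only. No test was run. Free RNA was read from droplets of 10 to 100 UMIs. The named genes were all 10 members, a list of 24 pathway genes and the 5 genes most like each of 2 references among genes reaching 50 CPM. The members, lists and motifs were chosen with earlier results of these data known. The fold rule was run on counts simulated with Poisson error only, the error that the intervals assume. Such counts hold no variation between tumors, libraries or gates, so the outcome says nothing about that variation. Python 3.11.15, scipy 1.17.1, R 4.3.3 and edgeR 4.0.16 were used. Of the pathway list, 1 gene is counted but not reported here.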

Additional observations from a re-analysis of the deposited data

Results flagged for a closer look

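H2-DMb2, a beta chain of H2-DM, had opposite directions between cell types. Its log2 ratio of IR over Control was -0.42 (-0.68 to -0.16) in all macrophages and 0.49 (0.24 to 0.75) in cDC2. The difference between these ratios was -0.91 (-1.27 to -0.55) by counting error, and it was not tested, since there was 1 library per group. The gene was picked because its intervals lay on opposite sides of no change, so the interval of the difference adds no support. Its paralog H2-DMb1 was at -0.35 in macrophages and -0.15 in cDC2, and the split of reads between the paralogs is uncertain. The macrophage ratio was -0.17 with another thinning seed or with gates on all UMIs, and the cDC2 ratio 0.33 and 0.63.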

How the results depend on the processing

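Each alternative changed a single choice. No paired analysis was possible because each group was a single library, and for the same reason none could be left out. In classical monocytes the median log2 ratio of the class II genes, -0.65, was -0.47 with at least 2000 UMIs per barcode, -0.46 without doublet removal, -0.77 with gates on all UMIs, -0.50 with another thinning seed and -1.58 with the gate without interferon-induced genes. The genes called lower, 5 in the report, were 2, 2 and 8 in the first 3 of these and 8 in the last. The share of all genes called lower was not taken for these settings. The ratio of IR to Control in the share of cells with 10 class II UMIs, 0.62, was 0.74 with at least 2000 UMIs, 0.72 with the other seed and 0.36 without the interferon-induced genes. In macrophages the median, -0.64, was -0.54 without doublet removal, -0.72 without mitochondrial and ribosomal genes, -0.55 on the scale of CPM plus 10 and -0.71 with subsets weighted. Over both gates the ratio of shares, 0.54, was 0.68 with C1q bins weighted. The cDC2 median, -0.11, was 0.06 with gates on all UMIs. The mature DC median, -0.14, was -0.50 without doublet removal, 0.07 with at most 10% mitochondrial UMIs and 0.05 with the other seed. The cause of these shifts was not tested.

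Genes whose main interval left out no change turned in sign in DCs, and in neither classical monocytes nor macrophages. In cDC1, H2-Eb1 was at -0.05 and Cd74 at -0.01 without doublet removal, and H2-Eb1 at -0.12 with gates on all UMIs. In cDC2 with gates on all UMIs, H2-Aa was at 0.09, H2-Ab1 at 0.06, H2-Eb1 at 0.12, H2-DMa at 0.00 and H2-DMb1 at 0.05. In mature DCs with at most 10% mitochondrial UMIs, H2-Aa was at 0.02, H2-Ab1 at 0.37, H2-Eb1 at 0.15 and Cd74 at 0.12. With the other seed these were 0.01, 0.22, 0.09 and 0.09, and with gates on all UMIs H2-Aa was at 0.01. Of the remaining values of medians, counts and shares, 94 stayed within their counting interval or within 1.5 times the count, as did 603 values of single genes and gene ratios, while 124 of the latter moved further, among them Cd74 in cDC2, from -0.01 to 0.22 with gates on all UMIs. The counting intervals do not cover this dependence on the gates, nor differences between tumors. TMM scaling shifted monocytes by 0.09 and macrophages by 0.04. H2-Oa, H2-Ob and Ciita rested on few UMIs, which limits what could be detected.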

Other observations

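In plasmacytoid DCs, 12 and 14 cells, H2-Ab1 was measured at 733 CPM (555 to 949) for the Control library, and the IR library gave 2516 CPM (2239 to 2817). Free RNA, gauged from the T and NK cell genes, came to 12.5% and 1.92% of their UMIs and to 39.7% and 0.785% of their H2-Ab1, and its part in the difference was not tested. The median plasmacytoid DC held 2.5 and 1.0 class II UMIs of 1000, and 2 and 4 cells reached 10.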
